A study of Mus musculus with 20 samples.

Results

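Hemi-brains of homozygous APOE2 and APOE4 mice were compared at 18 MO, gene by gene, from the deposited raw counts. The comparison used 10 of the 20 libraries of the series, 5 APOE2 and 5 APOE4, chosen by the group name in the label of each library. All 20 libraries were labelled as from female C57bl/6 mice aged 18 months in which the mouse Apoe gene was replaced by a human APOE allele. The other 10 libraries were 5 APOE3 mice and 5 mice labelled APOE4D, which carry the genotype APOE4 and for which the labels do not say what the D stands for. The APOE3 libraries entered the same fit, so that the 15 libraries shared 1 estimate of the spread, and the APOE4D libraries were only placed beside the others. Every library came from a different mouse, so errors below describe variation among mice.

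Apolipoprotein E is a lipid carrier that is made in the brain mainly by astrocytes and by activated microglia, and it is taken up through receptors of the LDL receptor family. In humans the APOE4 allele raises the risk of late-onset Alzheimer's disease and the APOE2 allele lowers it, and the proteins differ in lipid binding and receptor affinity. The targeted replacement keeps the mouse promoter, so the human protein is made where mouse Apoe would be, and these mice form neither amyloid plaques nor tau tangles. In bulk hemi-brain RNA, fewer cells of a type and less RNA per cell cannot be told apart.

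The APOE2 libraries held 42723532 to 44852581 counted reads and the APOE4 libraries 33032138 to 46887242. Mitochondrially encoded genes took 6.2% to 6.81% of the counts in APOE2 and 6.25% to 7.22% in APOE4. Xist had 15163 to 24959 reads in the 10 libraries, and 4 Y-linked genes together had at most 6. In the shared fit, APOE3 replicate 1 had 48 Xist reads against 14653 to 18008 in the other APOE3 libraries, which goes against its female label, while its Y-linked reads, 5, were within the 0 to 5 of the others. Results that move without it are given as such. Markers of astrocytes summed to 8603 to 9157 CPM (counts scaled to 1000000 reads, with TMM factors) in APOE2 and 8703 to 9104 CPM in APOE4, and those of oligodendrocytes to 9602 to 12690 CPM and 9759 to 11230 CPM. APOE2 replicate 4 stood apart from the other APOE2 mice in many of the genes described, and its value is given at several of them.

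APOE2 and APOE4 brains differed in 1238 of 21022 genes tested, 5.89% (quasi-likelihood test of edgeR, Benjamini-Hochberg adjusted p under 0.05). Log2 fold changes below are APOE2 against APOE4, and ± after one is its standard error. Of these DEGs, 692 were higher in APOE2 (3.29% of the genes tested) and 546 were lower (2.6%). Most differences were small, with a median fold of 1.218 among the DEGs. A fold of at least 1.5 was reached by 317 DEGs (1.51%), and a fold of at least 2 by 202 (0.961%), 95 higher and 107 lower in APOE2. The CPM of the 5 APOE2 and the 5 APOE4 mice did not overlap in 1626 genes (7.73%), 858 higher (4.08%) and 768 lower (3.65%) in APOE2. Both criteria were met by 935 genes (4.45%), and 20.1% of all genes had an unadjusted p under 0.05. The count of DEGs fell to 733 without APOE4 replicate 4, 749 without APOE2 replicate 3 and 798 without APOE4 replicate 5. It was 1586 without APOE3 replicate 1.

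The targeted locus showed little difference. Reads were assigned to mouse Apoe (chromosome 7 of GRCm38.p6, 19696244 to 19701310) in every library, 1206 to 1941 reads in the 10 libraries, although the mice carry the human coding gene, and human APOE itself was not measured here. Apoe was at 36.3 to 42.4 CPM in APOE2 and 33.9 to 41.3 CPM in APOE4, and the groups overlapped. The log2 fold change of APOE2 against APOE4 was 0.08 ± 0.06 (edgeR adjusted p = 0.481), and a two-sided exact permutation test of the 5 against 5 libraries gave p = 0.27, where 0.00794 is the smallest p it allows. Apoc1, the apolipoprotein C1 gene beside it, was higher in APOE2 (log2 fold change 0.55, edgeR adjusted p = 0.043), a call lost in 10 of the 15 fits that left out 1 library. Tomm40, the pore of the mitochondrial import channel on the other side, had a log2 fold change of -0.05 (edgeR adjusted p = 0.588). Of 48 tested genes that flank Apoe on chromosome 7, 3 were higher and none lower in APOE2, a share of 6.25%. Of all genes, 5.89% were called in either direction and 3.29% were higher. None of the 48 was called without APOE4 replicate 3 or replicate 5. A positive log2 fold change was found in 40 of the 48, with a median of 0.079. Their summed levels were 1734 to 1804 CPM in APOE2 and 1631 to 1736 CPM in APOE4, which overlapped. Among receptors and brain lipid carriers of APOE, 1 of 23 genes was called, and it was Apoc1. None of 22 genes of the amyloid precursor family and its secretases was called by edgeR.

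The smallest p belonged to Wdfy1, an endosomal adaptor that promotes signalling of Toll-like receptors. Wdfy1 (chromosome 1, 79702262 to 79776143) was at 57.1, 55.9, 53.8, 56.5 and 52.1 CPM in APOE2 replicates 1 to 5 and at 23, 21, 22.6, 22.8 and 23.1 CPM in APOE4 replicates 1 to 5. All 5 APOE2 mice, replicate 4 included, were more than 2-fold above all 5 APOE4 mice. The log2 fold change was 1.29 ± 0.05 (edgeR adjusted p = 1.6e-14). APOE3 mice ranged from 47.4 to 59.3 CPM and APOE4D mice from 20.6 to 22.5 CPM, so the levels of APOE3 lay with APOE2 and those of APOE4D with APOE4. Wdfy1 overlaps Mrpl44 in the annotation.

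Zfp14, a KRAB zinc finger protein gene, was the next coding gene by p and was lower in APOE2. Zfp14 (chromosome 7, replicates 1 to 5) was at 12.3, 13.7, 14.6, 13 and 15.9 CPM in APOE2 and at 35.4, 31.4, 33.2, 30.6 and 29.7 CPM in APOE4. The groups were about 2-fold apart with no overlap (log2 fold change -1.20 ± 0.06, edgeR adjusted p = 6.37e-13). Here APOE3 mice, at 29.9 to 31.8 CPM, lay with APOE4.

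**Figure D1:**
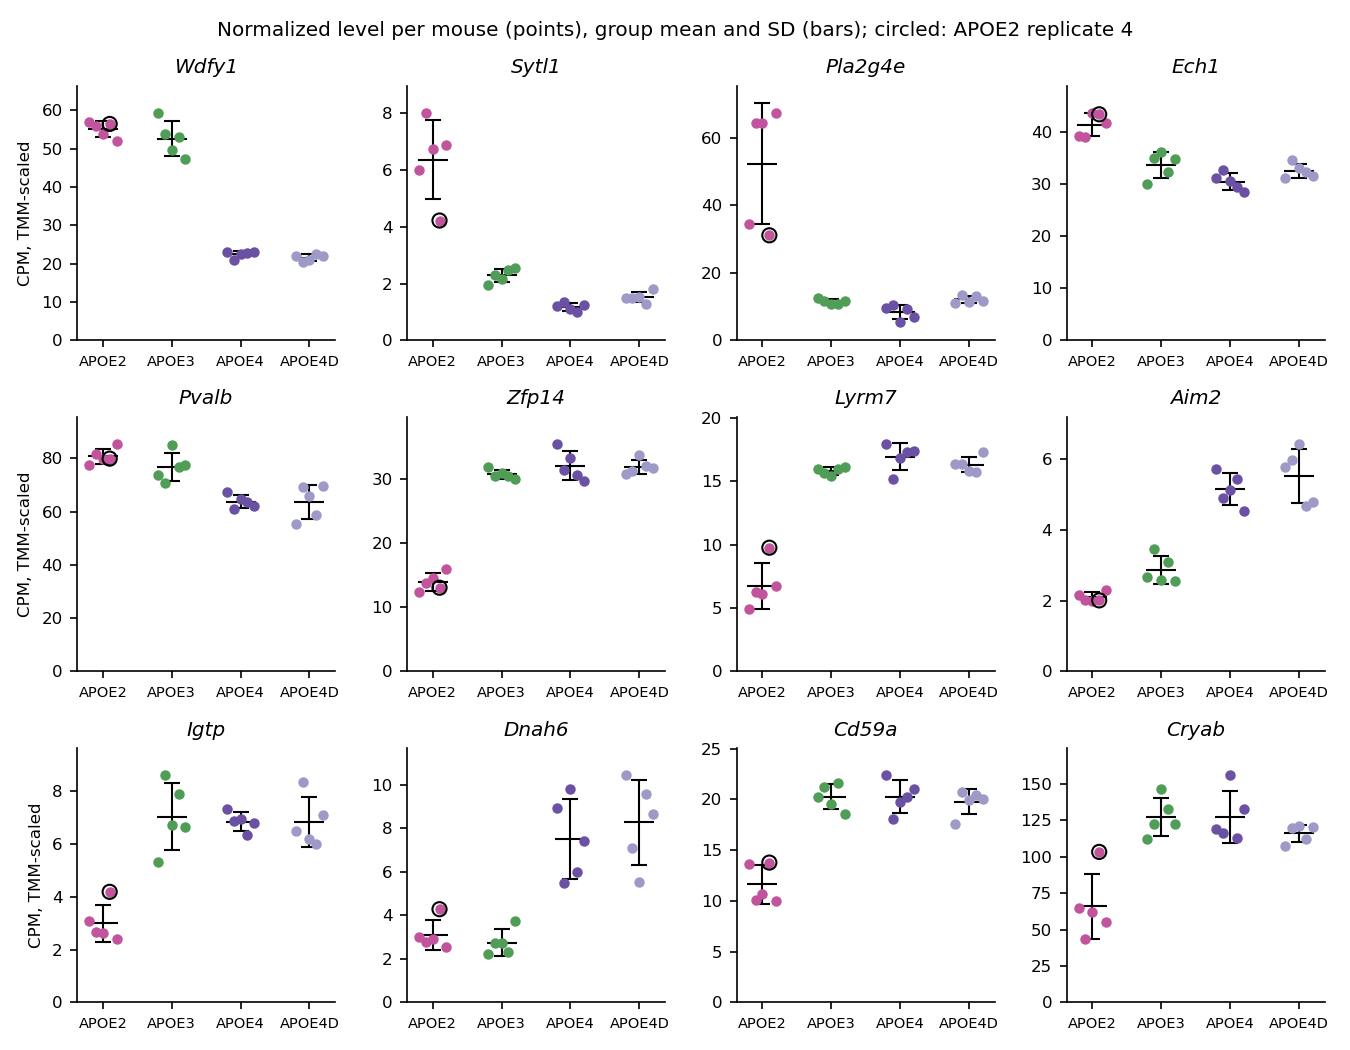
Normalized level (CPM, scaled by TMM, linear axis from 0) of 12 genes in each of the 20 mice. Points are mice, bars are the group mean and SD (n = 5), and the circle marks APOE2 replicate 4. Wdfy1 and Aim2 separated APOE2 from APOE4 with replicate 4 among its group, whereas at Sytl1, Lyrm7 and Cryab replicate 4 lay toward APOE4.

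Pla2g4e and Sytl1 were coding genes with clearly higher levels in APOE2. Pla2g4e encodes a cytosolic phospholipase that makes N-acyl phospholipids in mice. It was at 34.4, 64.3, 64.3, 31.1 and 67.2 CPM in APOE2 replicates 1 to 5 and at 9.60, 10.6, 5.52, 9.30 and 6.91 CPM in APOE4, a log2 fold change of 2.64 ± 0.25 (edgeR adjusted p = 4.18e-05). APOE2 replicates 1 and 4 lay between the other APOE2 mice and APOE4. Sytl1, a synaptotagmin-like effector of RAB27 in vesicle release, was at 5.98, 7.99, 6.72, 4.21 and 6.88 CPM in APOE2 and at 1.21, 1.33, 1.10, 0.995 and 1.23 CPM in APOE4 (log2 fold change 2.44 ± 0.15, edgeR adjusted p = 1.6e-11). Replicate 4 was the lowest APOE2 mouse at Sytl1 and was still above every APOE4 mouse.

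A constant region gene of immunoglobulin G, Ighg2c, was at 1.86 to 5.23 CPM in APOE2 and 3.89 to 5.58 CPM in APOE3 but at 0 to 0.174 CPM in APOE4 and 0 to 0.157 CPM in APOE4D. Its log2 fold change was 5.20 ± 0.44 (edgeR adjusted p = 1.24e-06). Ech1, which moves double bonds in fatty acid oxidation, was higher in APOE2 at 39 to 43.6 CPM against 28.4 to 32.6 CPM (log2 fold change 0.45, edgeR adjusted p = 3.86e-06). Rab4a, a GTPase of early endosome recycling, was higher at 49.9 to 53.7 CPM against 41.0 to 43.7 CPM (log2 fold change 0.30, edgeR adjusted p = 1.85e-05). Neither gene overlapped between the groups.

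Bfsp2, Dcdc2b and Lyrm7 were coding genes with lower levels in APOE2. Lyrm7, a chaperone that helps insert the Rieske subunit into respiratory complex III, was at 4.91, 6.29, 6.08, 9.77 and 6.72 CPM in APOE2 and at 17.9, 15.2, 16.9, 17.3 and 17.4 CPM in APOE4 (log2 fold change -1.33 ± 0.12, edgeR adjusted p = 4.74e-07). Replicate 4 was the highest APOE2 mouse, and no APOE2 mouse reached APOE4. Bfsp2, a filament protein of the lens, was at 0.327 to 0.532 CPM in 4 APOE2 mice, at 2.81 CPM in replicate 4 and at 3.93 to 5.82 CPM in APOE4 (log2 fold change -2.40, edgeR adjusted p = 0.0117). Dcdc2b, of the doublecortin family, was at 1.14 to 1.57 CPM in 4 APOE2 mice, 3.78 CPM in replicate 4 and 5.70 to 7.54 CPM in APOE4 (log2 fold change -1.79, edgeR adjusted p = 0.000344). In each of these 3 genes replicate 4 lay between its group and APOE4.

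Dnah6, a heavy chain of the axonemal dynein of motile cilia, was also lower, with 2.54 to 3.0 CPM in APOE2 replicates 1, 2, 3 and 5, 4.28 CPM in replicate 4 and 5.48 to 9.79 CPM in APOE4 (log2 fold change -1.27, edgeR adjusted p = 0.000111). Other genes of motile cilia and ependyma went both ways, 2 of 38 higher and 2 lower (10.5% against 5.89% of all genes), and 1 to 3 were higher when 1 library was left out. Zmynd10, a dynein assembly factor, was higher (log2 fold change 0.75, edgeR adjusted p = 3.4e-05) and Ccdc153 was lower (-0.94). Ccdc153 was at 2.27 to 2.99 CPM in 4 APOE2 mice and 4.72 CPM in replicate 4, which lay within the APOE4 range of 4.62 to 6.80 CPM, so that the groups overlapped. The summed level of that list was 232.4 to 252.5 CPM in APOE2 and 214.8 to 258.3 CPM in APOE4, and the ranges overlapped.

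Several genes of a list that joins the type I interferon response with interferon-induced GTPases were lower in APOE2. Interferons made after detection of viral or misplaced self nucleic acids switch on a set of antiviral proteins, among them the immunity-related and guanylate-binding GTPases, and in the brain microglia, astrocytes and endothelium can all respond. Of 47 tested genes, 13 were lower and 1 was higher, 29.8% against 5.89% of all genes. The median log2 fold change was -0.576, against 0.0027 over all genes, and 45 of the 47 had a negative value. The count of lower genes was 8 without APOE2 replicate 2, 8 without APOE2 replicate 3, 8 without APOE4 replicate 4, and 18 without APOE3 replicate 2. The median ranged from -0.637 to -0.505 when 1 library was left out. The summed level of the list was 255.0 to 311.3 CPM in APOE2 and 321.7 to 375.8 CPM in APOE4. In APOE4D it was 301.9 to 406.5 CPM, which reached into the APOE2 range.

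Igtp, an interferon-induced GTPase that acts at vacuoles of intracellular parasites, showed the smallest p of the list. It was at 3.09, 2.67, 2.62, 4.19 and 2.40 CPM in APOE2 replicates 1 to 5 and at 7.33, 6.87, 6.95, 6.34 and 6.78 CPM in APOE4 (log2 fold change -1.19 ± 0.13, edgeR adjusted p = 1.52e-06). The groups did not overlap, and APOE3 mice, at 5.33 to 8.61 CPM, lay with APOE4. The related GTPases Irgm1 (log2 fold change -0.46, edgeR adjusted p = 0.000632), Gbp3 (-1.0), Gbp2 (-0.49) and Iigp1 (-1.25) were lower too. Gbp3 was at 3.06 to 5.39 CPM in APOE2 and 6.99 to 10.9 CPM in APOE4. Usp18, the protease that removes ISG15 from proteins and dampens interferon receptors, was at 1.11 to 1.59 CPM against 2.46 to 4.61 CPM (log2 fold change -1.24, edgeR adjusted p = 0.0384), a call lost in 10 of the 15 fits that left out 1 library. Well-known members, named after their values were seen, did not all pass the test. Isg15 had a log2 fold change of -0.62 (edgeR adjusted p = 0.188) and Bst2 one of -0.67 (edgeR adjusted p = 0.161).

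Xaf1, an interferon-induced gene of apoptosis named after its values were seen, was the single member called higher, with a log2 fold change of 1.39 (edgeR adjusted p = 0.0297). Its APOE2 levels were uneven, at 21.4, 27.6, 20.4, 7.85 and 44.5 CPM in replicates 1 to 5 against 8.46 to 9.89 CPM in APOE4. APOE2 replicate 4 lay below all APOE4 mice.

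The AIM2-like receptors, which bind DNA in the cytosol or nucleus, had negative values throughout. All 7 tested genes had a negative log2 fold change and 4 were called lower in APOE2, 57.1% against 2.6% of all genes. Of 13 members with counts, only these 7 passed the filter at 0.1 CPM. Ifi213 was at 0.0222 to 0.161 CPM in APOE2 and passed through its APOE3 and APOE4 libraries, all above 0.1 CPM. The share and the common sign therefore depend in part on the filter. Aim2, the sensor that builds an inflammasome on cytosolic DNA, was at 2.15, 2.02, 2.0, 2.0 and 2.31 CPM in APOE2 replicates 1 to 5 and at 5.70, 4.90, 5.12, 5.42 and 4.53 CPM in APOE4 (log2 fold change -1.29 ± 0.11, edgeR adjusted p = 1.18e-08). APOE3 mice, at 2.56 to 3.46 CPM, were above the APOE2 mice and below the APOE4 mice. Aim2 overlaps Cadm3 and n-TRtct5 in the annotation, and whether reads were shared between them was not tested. Ifi204, Ifi213 and Ifi209 had log2 fold changes of -1.37, -2.40 and -1.36, all at levels under 1 CPM in every APOE2 and APOE4 mouse. The count of 4 was 4 or 5 in each fit that left out 1 library. Cgas, the enzyme that makes the messenger of the other main cytosolic DNA sensing pathway, was chosen after its values were seen and was at 0.421 to 0.806 CPM in APOE2 and 1.30 to 1.71 CPM in APOE4 (log2 fold change -1.24, edgeR adjusted p = 5.4e-05).

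**Figure D2:**
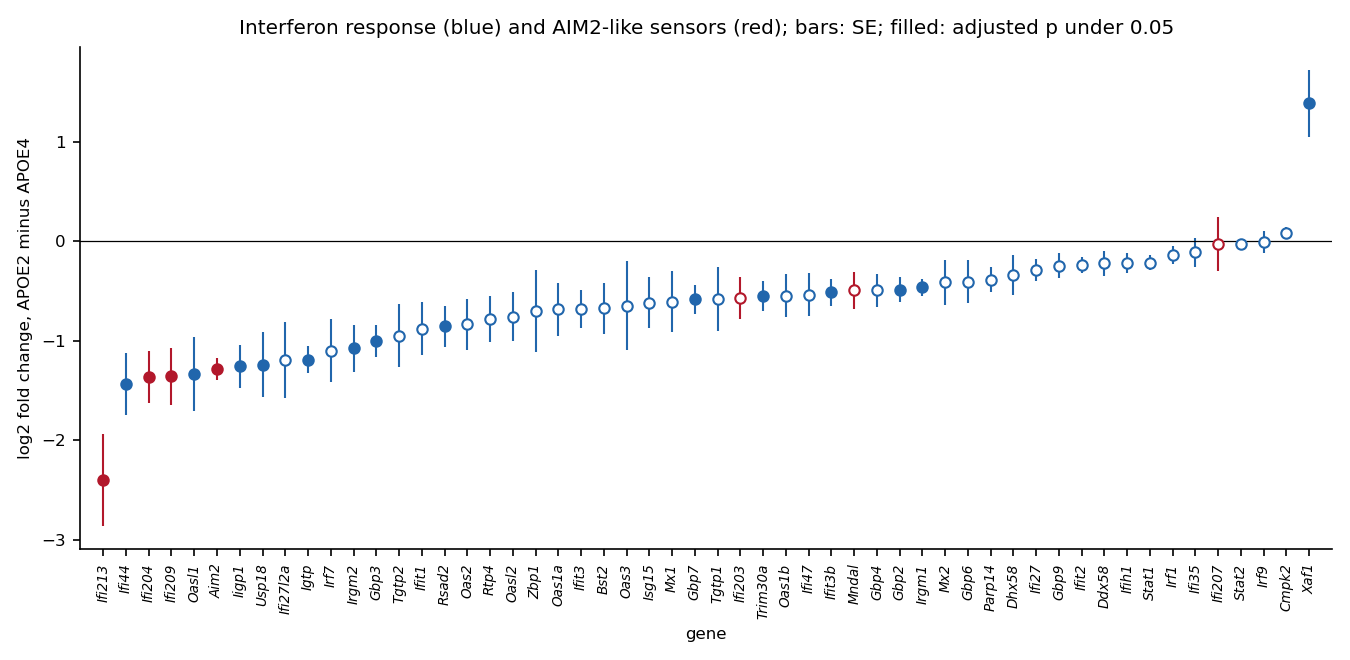
Log2 fold change of APOE2 minus APOE4 (points, with standard error bars) for 47 tested genes of the interferon response (blue) and 7 AIM2-like sensors (red), ordered by size. Filled points passed edgeR's test at an adjusted p under 0.05. Nearly all points lay below 0, and Xaf1 was the filled point above it.

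Antigen presentation by MHC class I, which interferon also induces, had 4 of 24 genes lower and 1 higher, 20.8% against 5.89% of all genes. B2m, the light chain common to all class I molecules, was at 67 to 99.2 CPM in APOE2 and 113 to 129 CPM in APOE4 (log2 fold change -0.54, edgeR adjusted p = 0.0258). H2-Q4, at 4.67 to 6.77 CPM against 7.73 to 9.96 CPM, and H2-T24, at 1.23 to 1.91 CPM with replicate 4 the highest against 2.22 to 3.28 CPM, are class I heavy chains. Reads of class I heavy chains can be split between near-identical copies. The count of lower genes was 1 without APOE4 replicate 1 and 2 without APOE2 replicate 3. Cd59a, which blocks the membrane attack complex of complement, was at 10.0 to 13.8 CPM in APOE2, highest in replicate 4, and 18.1 to 22.4 CPM in APOE4 (log2 fold change -0.80, edgeR adjusted p = 8.38e-07), and it was the only one of 22 tested complement genes that was called.

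Markers of microglia, which can carry these genes, gave the following sums. Homeostatic microglial markers summed to 1005 to 1138 CPM in APOE2 and 979.0 to 1026 CPM in APOE4. Among them 1 of 20 genes was higher and 1 lower, 10% against 5.89% of all genes. The higher one, Sparc, a matrix protein, was at 439 to 541 CPM in APOE2 and 379 to 424 CPM in APOE4 and so made up a large part of the sum. Without Sparc, a sum added after its values were seen, the other 19 came to 485.4 to 597.1 CPM in APOE2 and 566.9 to 621.8 CPM in APOE4, which overlapped. Of the 20 genes 15 had a negative log2 fold change, with a median of -0.11. The microglial receptor Gpr34 was the lower one (log2 fold change -0.35, edgeR adjusted p = 0.0015). Disease-associated microglial markers summed to 579.8 to 658.1 CPM and 522.9 to 600.6 CPM, and Trem2 had a log2 fold change of 0.04 (edgeR adjusted p = 0.854). In that list 1 of 21 genes was higher and none lower, 4.76%, below the share of all genes. Border macrophage and MHC class II markers summed to 45.81 to 66.83 CPM and 48.56 to 59.81 CPM, with no gene of 19 called. The part of cell numbers in the interferon genes was not tested.

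The promoters of 4 lower interferon genes are printed because each of them holds the core of the interferon-stimulated response element, the site that interferon-activated transcription factors bind. The RefSeq table of promoters (GRCm38.p6, 250 bases before to 50 after each start) held 31 of the 47 tested genes of the list. The core GAAANNGAAA, or TTTCNNTTTC on the other strand, was found in 20 of these 31, in 9 of the 11 lower genes with a promoter, and in 3.66% of 14024 tested genes with a promoter. The 250 bases before the start are given 5′ to 3′ on the gene's strand, with the motif in capitals, and a match of letters does not show that a factor binds.
Igtp (chr11:58199306-58199555, + strand): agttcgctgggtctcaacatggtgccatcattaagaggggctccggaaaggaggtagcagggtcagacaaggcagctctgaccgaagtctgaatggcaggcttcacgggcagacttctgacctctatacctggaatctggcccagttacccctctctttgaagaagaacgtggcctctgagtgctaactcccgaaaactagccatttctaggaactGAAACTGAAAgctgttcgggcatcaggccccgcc
Irgm2 (chr11:58214727-58214976, + strand): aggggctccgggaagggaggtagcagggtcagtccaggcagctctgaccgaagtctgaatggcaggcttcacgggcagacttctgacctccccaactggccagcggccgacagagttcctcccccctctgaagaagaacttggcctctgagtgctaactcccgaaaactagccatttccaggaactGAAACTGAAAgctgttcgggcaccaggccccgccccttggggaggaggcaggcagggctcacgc
Gbp3 (chr3:142559794-142560043, + strand): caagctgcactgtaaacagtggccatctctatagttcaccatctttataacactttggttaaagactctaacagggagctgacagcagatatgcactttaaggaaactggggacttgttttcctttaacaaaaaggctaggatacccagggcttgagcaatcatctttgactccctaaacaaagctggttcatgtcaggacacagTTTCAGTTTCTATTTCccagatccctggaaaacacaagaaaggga
Rsad2 (chr12:26456453-26456702, - strand): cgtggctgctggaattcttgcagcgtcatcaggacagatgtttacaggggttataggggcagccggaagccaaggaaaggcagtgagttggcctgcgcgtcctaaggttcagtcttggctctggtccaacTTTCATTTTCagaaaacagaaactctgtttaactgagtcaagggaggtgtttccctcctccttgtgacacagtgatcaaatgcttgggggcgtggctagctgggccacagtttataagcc
Igtp and Irgm2 carry the same 10 letters, and Gbp3 holds 2 overlapping copies on the other strand. Both Irgm2 and Rsad2 were chosen after their values were seen. Irgm2, another GTPase of this family on chromosome 11, was at 1.86 to 4.61 CPM in APOE2 and 5.56 to 6.68 CPM in APOE4 (log2 fold change -1.08, edgeR adjusted p = 0.0152). Rsad2, which encodes the antiviral enzyme viperin, was at 0.931 to 2.17 CPM in APOE2 and 2.89 to 3.53 CPM in APOE4 (log2 fold change -0.86, edgeR adjusted p = 0.0171).

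Some nuclear genes of the respiratory chain and ATP synthase were higher in APOE2, by small amounts. Of 77 tested genes 17 were higher and none lower, 22.1% against 5.89% of all genes, with a median log2 fold change of 0.10. Atp5l, a small subunit of the ATP synthase stalk, was at 22.4 to 27.0 CPM in APOE2 and 18.1 to 19.9 CPM in APOE4 (log2 fold change 0.38, edgeR adjusted p = 0.000147). Cox8a, of cytochrome c oxidase, was at 435 to 477 CPM against 355 to 405 CPM (log2 fold change 0.25, edgeR adjusted p = 0.0015), and Cox6a1 had a log2 fold change of 0.23. The mitochondrially encoded mRNAs had none of 10 higher and 1 lower. The count of 17 depended on single mice and on the fit. It was 6 without APOE2 replicate 3, 7 without APOE4 replicate 4, 8 without APOE2 replicate 1, 9 without APOE4 replicate 5, 10 without APOE4 replicate 2, 11 without APOE4 replicate 3 and 25 without APOE3 replicate 3. After removal of a trend with GC content and length of transcripts it was 7, and the median was 0.06. The summed level of the list was 12240 to 12910 CPM in APOE2 and 11580 to 12150 CPM in APOE4. In APOE4D it was 11520 to 12680 CPM, which reached into the APOE2 range.

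Genes that guard against peroxides and carry glutathione chemistry were higher in 8 of 40 cases and lower in none, 20% against 5.89% of all genes, with a median of 0.10. Gstz1, a glutathione transferase of tyrosine breakdown, was at 49.5 to 62.4 CPM in APOE2 and 44.7 to 47.1 CPM in APOE4 (log2 fold change 0.26, edgeR adjusted p = 0.00244). Gpx4, which reduces lipid peroxides in membranes, was at 184 to 208 CPM against 164 to 171 CPM (log2 fold change 0.22, edgeR adjusted p = 0.006). The count was 2 without APOE4 replicate 2 or replicate 4, 3 without APOE2 replicate 3, APOE2 replicate 5 or APOE4 replicate 5, 4 without APOE2 replicate 1 or APOE4 replicate 3, and 5 without APOE4 replicate 1. Of 78 mitochondrial ribosome genes 8 were higher and 2 lower, 12.8% against 5.89% of all genes. The 8 became 3 without APOE2 replicate 1 or APOE4 replicate 4, 4 without APOE2 replicate 3 or APOE4 replicate 5, and 5 without APOE4 replicate 2. Mrps12 was higher at 39 to 43.0 CPM against 27.2 to 30.9 CPM (log2 fold change 0.51, edgeR adjusted p = 7.62e-07), and Mrpl55 was lower at 17.2 to 21.6 CPM against 24.2 to 28.8 CPM (-0.49). Of 79 cytosolic ribosome genes 6 were higher and none lower, 7.59% against 5.89% of all genes. The 6 became 2 without APOE2 replicate 3 or APOE4 replicate 4, 3 without APOE2 replicate 1 or APOE4 replicate 5, 10 without APOE3 replicate 1, and 11 without APOE2 replicate 2 or APOE3 replicate 3. In the fit on the 10 libraries alone 21 were higher and 1 lower.

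Chaperones and the unfolded protein response had 3 of 33 genes lower and 1 higher, 12.1% against 5.89% of all genes. Cryab, a small heat shock protein that is abundant in oligodendrocytes and reactive astrocytes, was at 64.9, 43.7, 61.9, 103 and 55.4 CPM in APOE2 replicates 1 to 5 and 112 to 156 CPM in APOE4 (log2 fold change -0.95 ± 0.19, edgeR adjusted p = 0.0113). Atf4, a transcription factor of the integrated stress response, was at 112 to 132 CPM against 133 to 157 CPM (log2 fold change -0.21). Leaving out 1 library ended the Atf4 call in 4 of 15 fits.

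Neuronal and vascular markers gave scattered calls. Of 23 striatal projection neuron genes, 4 were higher and 1 lower in APOE2, 21.7% against 5.89% of all genes, and 3 to 7 were higher and 0 to 2 lower when 1 library was left out, with 7 higher without APOE3 replicate 1. Among them was Ppp1r1b, the dopamine-regulated phosphatase inhibitor DARPP-32, which was at 289 to 355 CPM against 260 to 286 CPM (log2 fold change 0.23, edgeR adjusted p = 0.00588). The summed level of this list was 3060 to 3419 CPM in APOE2 and 2925 to 3082 CPM in APOE4, which overlapped. In APOE4D mice, which share the genotype APOE4, the sum was 3085 to 3290 CPM, above every APOE4 mouse and within the APOE2 range. Ppp1r1b was at 296 to 326 CPM in APOE4D, also above every APOE4 mouse. Pvalb, the calcium buffer of fast-spiking interneurons, was higher at 77.4 to 85.2 CPM against 61 to 67.2 CPM (log2 fold change 0.34, edgeR adjusted p = 1.4e-05). Its list of 30 tested GABA and interneuron genes had 2 higher and 1 lower, 10% against 5.89% of all genes. In that list 18 of 30 had a negative log2 fold change, with a median of -0.0084, and the summed levels overlapped. When 1 library was left out, 1 to 3 were higher and 0 to 2 lower. Cplx1, a clamp of synaptic vesicle fusion, was higher at 760 to 837 CPM against 670 to 702 CPM (log2 fold change 0.25, edgeR adjusted p = 5.45e-05). Grin2b, an NMDA receptor subunit, was lower at 215 to 243 CPM against 264 to 287 CPM (log2 fold change -0.28, edgeR adjusted p = 0.000951), and it was the only one of 54 postsynaptic genes that was called. Among ion channels 5 of 53 were lower and 2 higher, 13.2% against 5.89% of all genes. The 5 became 2 without any 1 of APOE2 replicates 1, 3 and 4, APOE3 replicate 2 and APOE4 replicates 3, 4 and 5, and 3 without any 1 of APOE2 replicate 5, APOE3 replicates 4 and 5 and APOE4 replicate 2. The sodium channel subunit Scn2b was at 253 to 285 CPM against 310 to 333 CPM (log2 fold change -0.28). Emcn, a surface sialomucin of endothelium, was lower (log2 fold change -0.36, edgeR adjusted p = 0.0057), as were Itm2a (-0.31) and Kdr (-0.52). Their list of 27 had none higher, and 11.1% were called against 5.89% of all genes. When 1 library was left out, 2 to 4 were lower, and the Kdr call was lost in 4 of 15 fits. Endothelial markers summed to 1343 to 1558 CPM in APOE2 and 1436 to 1507 CPM in APOE4.

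Genes of vesicle sorting, a theme of APOE biology, were called near the background share. Endosome sorting and retromer had 2 of 47 higher and 1 lower (6.38%), against 5.89% of all genes. Lysosomal hydrolases and proton pump had 3 of 58 higher (5.17%), and exosome biogenesis and ESCRT 1 of 40 higher (2.5%). Cholesterol synthesis had 1 of 29 higher and 1 lower (6.9%). The lower one was Sc5d, which makes a late sterol intermediate, at 50.3 to 60.04 CPM against 65.7 to 72.7 CPM (log2 fold change -0.28, edgeR adjusted p = 0.00148). Of the 45 lists, 8 had no call in this comparison.

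Several of the largest increases were in pseudogenes. Of 912 tested pseudogenes and 138 transcribed pseudogenes, 42 and 7 were called, 4.61% and 5.07%. The median size of the difference among the 42 was 2.06 on the log2 scale, and 0.875 among the 7. It was 0.254 among the 1049 coding DEGs, and 0.96 both among the 71 called long noncoding RNAs and among the 66 called genes without a RefSeq match. Gm11942 was at 112, 103, 104, 53.2 and 97.9 CPM in APOE2 replicates 1 to 5 and at 0.893 to 1.39 CPM in APOE4, a log2 fold change of 6.45 ± 0.25 (edgeR adjusted p = 4.49e-09). Gm13453, Gm5869 and Morf4l1-ps1 had log2 fold changes of 6.30, 6.44 and 3.97. In all 4, replicate 4 was the lowest APOE2 mouse and was far above APOE4.

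These copies are close to genes that make protein. Of 1050 tested pseudogenes of both kinds, 812 had a coding transcript (GENCODE vM39) at 90% identity or more over at least 80% of their length. Of the 26 called higher in APOE2 with such a match, 19 had the nearest coding gene on chromosome 4 or 9, or 73.1%, against 13.2% of all 812. These chromosomes were named after their values were seen. Several copies share a coding gene, 4 of them Eef1a1, 2 Rplp1 and 2 Hspa8, and with each coding gene counted once the shares were 14 of 21 (66.7%) against 68 of 539 (12.6%). The pseudogenes themselves lay on chromosome 4 or 9 in 3 of the 26 cases, 11.5%, against 11% of all 812. Of the 12 called lower, 2 had the coding gene on chromosome 4 or 9.

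Sequences of 4 pairs are printed to show how little separates a copy from its coding gene. Each stretch has 60 bases of the transcript, 5′ to 3′, from GENCODE vM39 within the coding part of the gene, and the capital marks the base that differs. The libraries were read from 1 end over 50 bases.
Gm15459: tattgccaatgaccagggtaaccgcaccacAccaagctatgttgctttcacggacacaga
Hspa8: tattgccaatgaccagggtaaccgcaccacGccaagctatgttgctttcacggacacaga
Morf4l1-ps1: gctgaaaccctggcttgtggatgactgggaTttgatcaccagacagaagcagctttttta
Morf4l1: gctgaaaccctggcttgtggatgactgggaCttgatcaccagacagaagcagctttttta
Gm11223: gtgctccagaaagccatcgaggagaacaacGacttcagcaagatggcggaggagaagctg
Stmn1: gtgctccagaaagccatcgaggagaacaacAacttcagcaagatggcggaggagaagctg
Gm13453: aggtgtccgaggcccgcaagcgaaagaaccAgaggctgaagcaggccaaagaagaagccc
Atp6v1g1: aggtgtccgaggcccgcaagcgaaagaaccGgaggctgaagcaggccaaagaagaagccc
Over the whole match, Gm15459 and Hspa8 differ at 5 of 1941 bases, Morf4l1-ps1 and Morf4l1 at 2 of 969, Gm11223 and Stmn1 at 1 of 450, and Gm13453 and Atp6v1g1 at 2 of 357. Of all 50-base windows of the copy, 86.8%, 93.2%, 87.5% and 67.5% occur letter for letter in the coding transcript. How the assignment of such reads bears on these counts was not tested.

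In some pairs the copy was higher and the coding gene lower in APOE2. Gm15459 (chromosome 5) was at 105, 128, 111, 73.3 and 93.8 CPM in APOE2 replicates 1 to 5 and 5.89 to 7.07 CPM in APOE4. Hspa8 (chromosome 9), the constitutive HSC70 chaperone, was at 519, 497, 519, 732 and 456 CPM in APOE2 and 719 to 828 CPM in APOE4, and APOE2 replicate 4 lay within the APOE4 range (log2 fold change -0.48 ± 0.10, edgeR adjusted p = 0.0119). The sum of both was 646.6 ± 94.8 CPM in APOE2 and 768.9 ± 45.0 CPM in APOE4 (SD, n = 5 each). Stmn1 (chromosome 4), which destabilises microtubules, was at 146 to 199 CPM in APOE2 and 230 to 260 CPM in APOE4 (log2 fold change -0.57, edgeR adjusted p = 4.33e-06), and Gm11223 at 12.5 to 24.5 CPM against 4.05 to 5.64 CPM. Their sum was 186.1 ± 18.1 CPM against 251.8 ± 13.2 CPM.

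The coding partners below were named for their copies, after their values were seen. Morf4l1, a chromatin reader of chromosome 9, had a log2 fold change of -0.28 beside 3.97 for Morf4l1-ps1. Hdac1, a histone deacetylase of chromosome 4, had one of -0.51 beside 1.89 for Hdac1-ps. Eif3j1, a translation initiation factor subunit on chromosome 2, had one of -1.20 beside 2.96 for its copy Eif3j2 on chromosome 18. Nudc, a nuclear movement protein of chromosome 4, went the same way as its copy (0.27 beside 3.47 for Nudc-ps1). Of the 25 called higher whose coding gene was tested, the coding gene was lower in 7 cases and higher in 3 by edgeR's test. That was 6 and 3 of 20 distinct coding genes, since Hspa8 stands for 2 of the 7. Of all genes tested, 2.6% were lower and 3.29% higher. On chromosomes 4 and 9 the shares called in either direction were 10.8% and 13.3%. Gpi-ps, a copy of the glycolytic enzyme gene Gpi1, was lower in APOE2, at 1.04 to 1.40 CPM against 5.22 to 8.32 CPM (log2 fold change -2.47, edgeR adjusted p = 1.21e-11), while Gpi1 had 0.09 and did not pass.

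**Figure D3:**
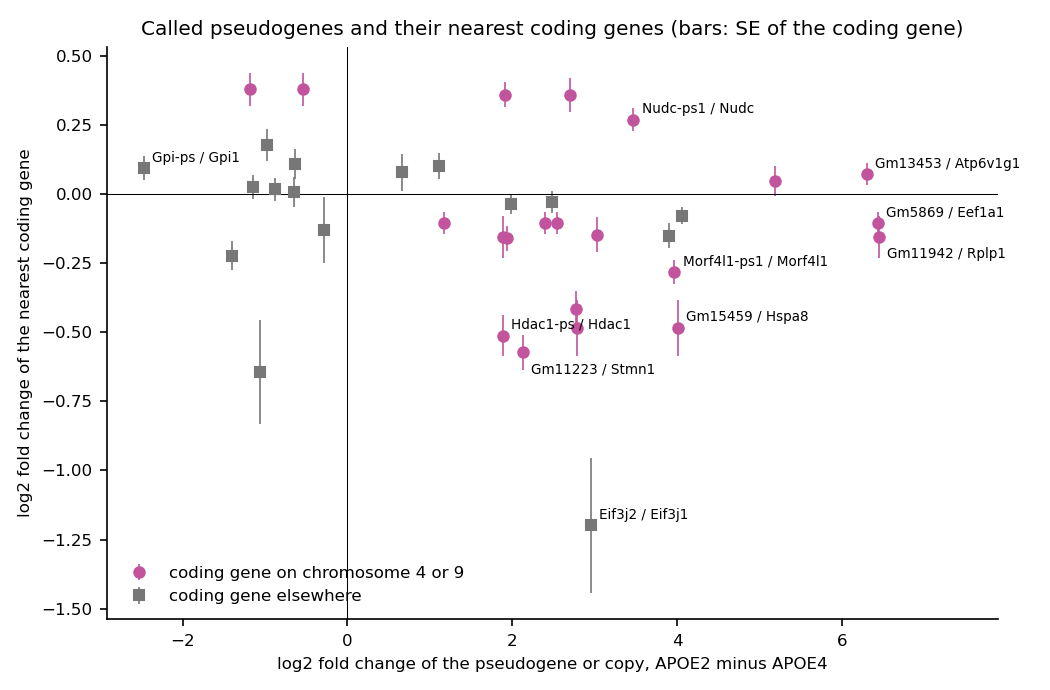
Log2 fold change (APOE2 minus APOE4) of called pseudogenes and of the copy Eif3j2 (x axis) against that of the nearest coding gene (y axis, with standard error bars). Circles mark coding genes on chromosome 4 or 9 and squares those elsewhere. Most copies on the right have a coding gene on chromosome 4 or 9, and several of those coding genes lie below 0.

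The DEGs were spread unevenly over the genome. On chromosome 9, 143 of 1073 tested genes were called, 13.3%, and on chromosome 4, 124 of 1149, 10.8%. The other autosomes and chromosome X ranged from 3.85% to 7.2%. Of 462 bins of 5 Mb with at least 10 tested genes, 119 had no call and the median share was 4.57%. In 15 bins the share was at least 20%, 5 of them on chromosome 4, 4 on chromosome 9, 2 each on chromosomes 2 and 13 and 1 each on chromosomes 7 and 19.

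The highest share, 30.5% (18 of 59 genes), was in a bin of chromosome 2 that starts at 115 Mb, and 16 of 62 genes were called in the next bin, where Pla2g4e, Eif3j1 and B2m lie. Directions were mixed within bins, with 10 of the 18 higher in APOE2. A bin of chromosome 9 that starts at 40 Mb had 14 of 65 genes called, among them Hspa8, Atp5l and Sc5d, and the next had 14 of 50. Genes named for their position here were chosen after their values were seen. The bin of chromosome 4 that starts at 125 Mb had 22 of 83, among them Hdac1 and Dcdc2b. Zfp14 lies in the single such bin of chromosome 7, which starts at 30 Mb and had 16 of 71 called.

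**Figure D4:**
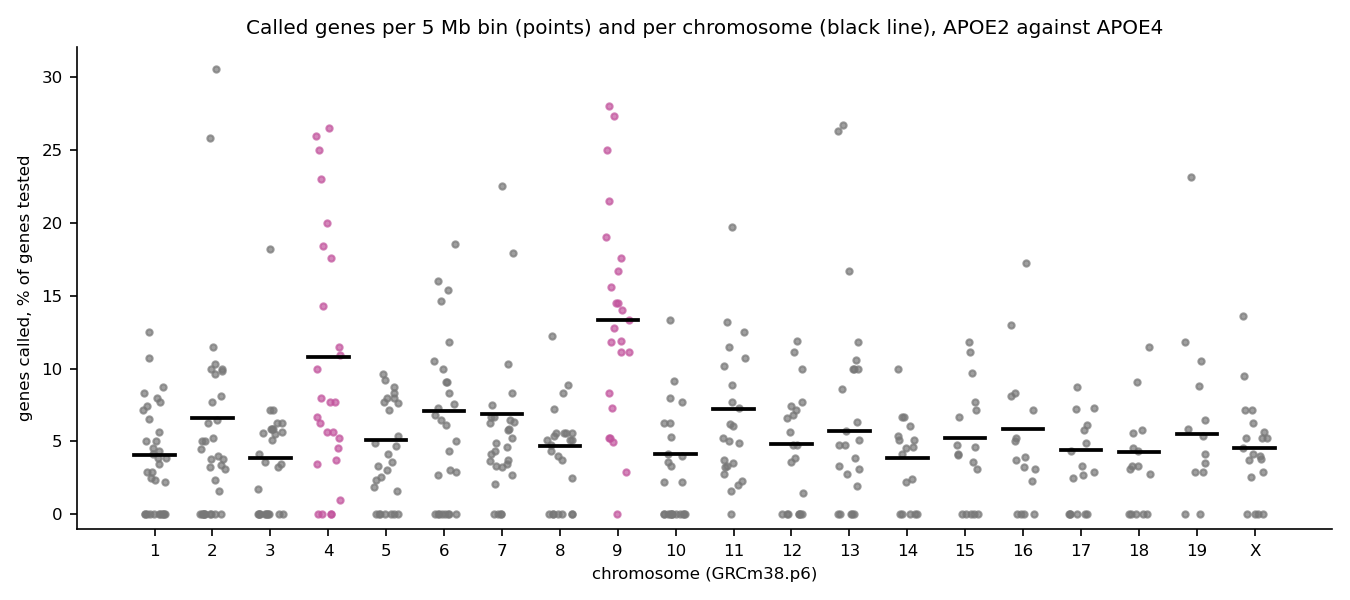
Share of tested genes called between APOE2 and APOE4 (y axis, in percent), for each 5 Mb bin with at least 10 tested genes (points) and for each chromosome (black line). Chromosomes 4 and 9, in pink, have the highest lines, 10.8% and 13.3%.

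The mice were placed on a scale of log2(CPM + 0.1) whose 0 is the APOE4 mean and whose 1 is the mean of APOE2 replicates 1, 2, 3 and 5. This used the 49 genes with a fold of at least 2 among the 785 that were called, did not overlap and had a mean log2 CPM of at least 1. APOE2 replicates 1, 2, 3 and 5 had median positions of 0.991 to 1.02, and replicate 4 one of 0.658. Its position was above 0.75 at 16 genes, between 0.25 and 0.75 at 30 and under 0.25 at 3. It was the APOE2 mouse nearest to APOE4 at 38 of the 49 genes and at 313 of the 785. Since these genes were chosen on all 5 APOE2 mice, the positions are a description. Replicates 1, 2, 3 and 5 set the 1, so their mean is 1 at each gene by construction. Replicate 4 was left out of that mean because it had been seen to stand apart. Without replicate 4 the DEGs numbered 1220.

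APOE3 lay with APOE4 at most of these genes. Its mean position was under 0.25 at 35 of the 49 genes, above 0.75 at 7 and between at 7. The 7 genes at which APOE3 lay with APOE2 included Wdfy1, Gpi-ps, Dnah6 and Ighg2c, and replicate 4 had a median position of 0.966 over them, against 0.629 over the 35. APOE4D mice had median positions of 0.00746 to 0.037 over the 49 genes, at the place of APOE4, although they took no part in the choice of genes. These medians do not cover the gene lists. Summed levels of APOE4D reached into the APOE2 range for the interferon, respiratory chain and striatal lists. A first principal component held 37.1% of the variance among the 10 libraries and separated APOE2 (5.01 to 19.4) from APOE4 (-15.9 to -12.6), with replicate 4 the lowest APOE2 value.

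**Figure D5:**
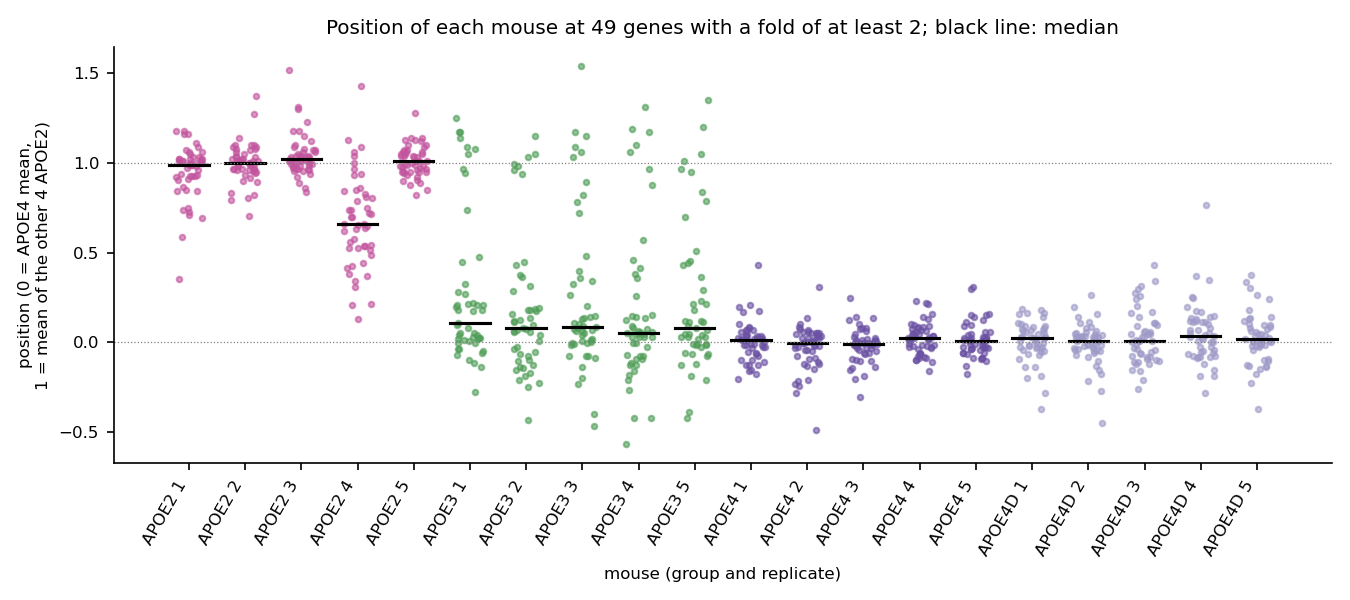
Position of each of the 20 mice (x axis, group and replicate) at 49 genes with a fold of at least 2, where 0 is the APOE4 mean and 1 that of APOE2 without replicate 4 (y axis). Points are genes and black lines are medians. APOE2 replicate 4 has its median at 0.658, and the APOE4D mice have theirs near 0.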

How the data were processed

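RNA of frozen left hemi-brains was sequenced from poly(A)-selected, stranded libraries as single reads of 50 bases. By the submitters' processing notes, the reads were trimmed, aligned with STAR (version 2.7.0) and counted per gene with featureCounts. The paper instead names RSEM for gene-level counts and a later version of STAR. The deposited table holds raw counts for 55291 genes. No source used here states whether counting used the strand, and 52 of 121 named genes with a position overlap another gene.

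Genes above 0.1 CPM in more than 40% of the 15 APOE2, APOE3 and APOE4 libraries were kept. TMM factors and a robust quasi-likelihood fit of edgeR 4.0.16 (R 4.3.3) compared APOE2 with APOE4, with p-values adjusted over all 21022 genes by the method of Benjamini and Hochberg. Positions came from RefSeq GRCm38.p6 (39106 genes matched by symbol), and pseudogenes were matched with blastn to GENCODE vM39 transcripts, which belong to a later build and gave no coordinates here.

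Named genes were those called, not overlapping between the groups and averaging a log2 CPM of 1 or more that had the 15 largest or 15 smallest log2 fold changes or the 10 smallest p, plus Apoe, Apoc1, Tomm40 and up to 4 called genes of each of 45 lists. The comparison, the lists and these rules were chosen with earlier results of these data known. Alternatives were no filter, filterByExpr, RLE factors, DESeq2 1.42.0, limma-voom (limma 3.58.1), only the 10 libraries, APOE4 joined with APOE4D, the letters of the animal ID as a covariate or without the FH animals, 1 surrogate variable (sva 3.50.0), removal of a length and GC trend, each library left out, and, added after seeing the data, libraries thinned to 1 total. A result for 1 gene is left out of the text.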

Additional observations from a re-analysis of the deposited data

Results flagged for a closer look

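Among 252 groups of 5 mice (126 named genes in APOE2 and in APOE4), 22 had 1 mouse whose gap to the next was over 0.71 of the whole range of its group. A rate of 1 in 20 would give 12.6 if the groups were independent. They are not, since the genes were measured in the same mice and chosen on these libraries, so the 2 numbers are no test. In 15 of the 22 the mouse was APOE2 replicate 4.

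At pseudogenes it was below the other APOE2 mice, with 53.2 CPM at Gm11942, 3.82 CPM at Morf4l1-ps1, 17.6 CPM at Gm13456 and 4.49 CPM at Eef1a1-ps1. It was above them at genes that were lower in APOE2, with 4.21 CPM at Gm40518, 2.81 CPM at Bfsp2, 2.95 CPM at 2610507I01Rik, 3.55 CPM at 1700063D05Rik, 3.78 CPM at Dcdc2b, 7.02 CPM at B230217O12Rik, 3.11 CPM at C030014I23Rik, 4.28 CPM at Dnah6, 732 CPM at Hspa8, 1.91 CPM at H2-T24 and 5.46 CPM at Pcdhb11. In each of these 15 genes it lay on the side of APOE4.

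The remaining 7 involved other mice. APOE4 replicate 5 had 0.149 CPM at Gm5869, APOE4 replicate 2 had 21.0 CPM at Wdfy1 and 12.1 CPM at Tmem72, and APOE4 replicate 1 had 21.8 CPM at Ndufaf1. APOE2 replicate 2 had 85.3 CPM at Snx17, APOE2 replicate 3 had 11.8 CPM at Gadd45g, and APOE2 replicate 5 had 4.04 CPM at Tmem72.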

How the results depend on the processing

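With only the 10 APOE2 and APOE4 libraries 1889 genes were called, 900 of them lower in APOE2, and 34 bins held at least 20% called genes in place of 15. Without the mice whose identifier begins with FH (APOE2 replicates 1 and 4, APOE4 replicates 4 and 5) the calls were 537, 252 higher and 285 lower. With 10 Mb bins 7 reached 20%. Leaving out 1 library gave 733 to 1586 calls, 386 to 799 higher and 347 to 787 lower. The cause of these differences, the smaller number of libraries included, was not tested. Of 124 called named genes, 81 kept their call in all 15 of these fits, 43 lost it in at least 1, and 0 changed sign. No paired analysis was possible because the labels give animal identifiers and no replicate numbers common to the groups. Differences of low genes are limited by depth, and at 5 mice a group small differences depend on single mice.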

Other observations

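Among genes of oligodendrocytes and myelin, Trf and Ugt8a were lower in APOE2. Trf, the iron carrier transferrin, was at 301 to 390 CPM in APOE2 and 367 to 452 CPM in APOE4 (log2 fold change -0.33, edgeR adjusted p = 0.00959). Ugt8a, which makes the galactolipids of myelin, was at 38.5 to 50.1 CPM in APOE2 and 48.9 to 57.1 CPM in APOE4 (log2 fold change -0.32, edgeR adjusted p = 0.0241). The whole list did not separate the groups, since its summed levels overlapped.

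Of 31 neuropeptide precursors, 3 were higher and 1 lower, 12.9% against 5.89% of all genes. The 3 became 1 without APOE2 replicate 5 or APOE4 replicate 2, 4 or 5, and 5 without APOE3 replicate 3. The lower one was Cort, which encodes cortistatin of cortical interneurons, at 3.11 to 3.77 CPM in APOE2 and 4.3 to 7.14 CPM in APOE4 (log2 fold change -0.78, edgeR adjusted p = 0.000283). Pmch, the precursor of melanin-concentrating hormone of the hypothalamus, was at 40 to 43.6 CPM in APOE2 and 30.2 to 38.5 CPM in APOE4 (log2 fold change 0.31, edgeR adjusted p = 0.0022). In the phospholipase list of 27 genes, 3 were lower (1 without APOE4 replicate 5) beside the higher Pla2g4e, 14.8% against 5.89% of all genes. Pla2g4b, the neighbour of Pla2g4e on chromosome 2, was at 0.155 to 0.941 CPM in APOE2 and 1.21 to 1.55 CPM in APOE4 (log2 fold change -1.40, edgeR adjusted p = 0.0193).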
